A study of Mus musculus with 12 samples.

Results

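The genes described here are 3 metallothioneins, Mt1, Mt2 and Mt3, with Mtf1 and Slc30a1, which control and relieve the same metal load. They were picked by symbol, so the set holds 5 of the 55401 gene identifiers of the culture tables and 5 of the 51826 of the forelimb table. They were proposed with the counts, the R40D3 against R0D3 differences and the genotype differences of these libraries already in view. Their own values in those contrasts are therefore given as a description, without a p-value.

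The study deleted Impdh2, an enzyme of guanine nucleotide synthesis, with a Cre active in early limb mesenchyme, driven by Prx (Prx-cKO), or with a Cre active in the myeloid lineage, driven by LysM (LysM-cKO), and sequenced messenger RNA from mice. Forelimbs came from E12.5 embryos, labelled Wt or Impdh2 Prx-cKO. Bone marrow cells of Wt and Impdh2 LysM-cKO mice were kept for 3 days in medium with supernatant of L929 cells, a source of the macrophage growth factor M-CSF equal to 20 ng/ml. The replated macrophages then received, per the protocol, 40 ng/ml of RANKL, the cytokine that drives osteoclast formation. All culture libraries share the label of osteoclast differentiation, and their titles separate R40D3 from R0D3, codes that the labels do not spell out. Each of the 6 groups (forelimb Wt, forelimb Prx-cKO, Wt R0D3, Wt R40D3, LysM-cKO R0D3 and LysM-cKO R40D3) has 2 libraries, 12 in all. The whole forelimb holds cells in which Prx-driven Cre is not active, and LysM-driven Cre acts only in myeloid cells, so a bulk library can mix cells with and without the deletion. The sources used here do not say whether replicates came from separate animals, so the spread between 2 libraries may be partly technical.

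Metallothioneins are small cysteine-rich proteins that bind zinc and copper. Mt1 and Mt2 are made in most tissues and are induced by zinc, cadmium, oxidative stress and glucocorticoids, while Mt3 is best known from the brain and Mt4 from stratified epithelium. Mtf1 encodes the zinc-sensing transcription factor MTF-1, which binds metal response elements in the promoters of Mt1, Mt2 and Slc30a1. Slc30a1 encodes ZnT1, the exporter that moves zinc out of the cell across the plasma membrane, and the ZIP family (Slc39a genes) carries zinc into the cytosol.

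The metallothionein genes lie side by side on mouse chromosome 8 (GRCm38, plus strand, GENCODE M21 annotation). Mt4 spans 94137197 to 94139031, Mt3 (ENSMUSG00000031760) 94152607 to 94154146, Mt2 (ENSMUSG00000031762) 94172664 to 94173568 and Mt1 (ENSMUSG00000031765) 94179082 to 94180327. Mtf1 (ENSMUSG00000028890) lies on chromosome 4 from 124802104 to 124849800, and Slc30a1 (ENSMUSG00000037434) on chromosome 1 from 191906767 to 191913247. The 250 bases before the RefSeq start are shown for the 4 genes whose culture groups did not overlap. MTF-1 is known to bind promoters of Mt1, Mt2 and Slc30a1, and the sequences shown differ between the neighbouring metallothioneins. They run 5′ to 3′ on the plus strand of GRCm38.p6, chr8:94178839-94179088, chr8:94172368-94172617, chr8:94152357-94152606 and chr1:191906531-191906780 in this order. Capitals mark each match to the metal response element core, searched on both strands as TGCACNC and TGCGCNC, forms that cannot overlap each other on 1 strand but can on opposite strands. A match on the minus strand appears as its reverse complement.
Mt1: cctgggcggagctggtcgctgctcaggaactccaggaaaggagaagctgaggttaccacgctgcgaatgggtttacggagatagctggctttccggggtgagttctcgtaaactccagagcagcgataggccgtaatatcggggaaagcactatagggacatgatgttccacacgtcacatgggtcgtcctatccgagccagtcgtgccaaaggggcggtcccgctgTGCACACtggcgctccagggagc
Mt2: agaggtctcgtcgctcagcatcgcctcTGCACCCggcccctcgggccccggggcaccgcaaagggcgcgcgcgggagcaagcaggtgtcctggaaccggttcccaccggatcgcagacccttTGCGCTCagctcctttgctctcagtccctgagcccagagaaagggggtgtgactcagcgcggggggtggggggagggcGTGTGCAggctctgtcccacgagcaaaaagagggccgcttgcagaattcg
Mt3: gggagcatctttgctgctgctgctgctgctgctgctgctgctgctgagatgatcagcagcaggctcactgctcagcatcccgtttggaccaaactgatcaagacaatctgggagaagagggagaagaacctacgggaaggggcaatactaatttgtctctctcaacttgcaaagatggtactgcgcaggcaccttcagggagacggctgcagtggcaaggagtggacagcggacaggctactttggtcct
Slc30a1: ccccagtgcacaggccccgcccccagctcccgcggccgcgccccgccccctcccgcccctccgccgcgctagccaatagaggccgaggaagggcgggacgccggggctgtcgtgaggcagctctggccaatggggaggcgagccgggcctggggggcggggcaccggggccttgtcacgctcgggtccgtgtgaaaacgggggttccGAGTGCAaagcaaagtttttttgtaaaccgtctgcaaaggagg

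Further matches lay in the 50 bases after the RefSeq start and are shown as short runs, chr8:94179089-94179118, chr8:94172620-94172649, chr8:94152632-94152656 and chr1:191906809-191906830 in this order.
Mt1: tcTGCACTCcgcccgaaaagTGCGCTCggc
Mt2: tcGTGCGCAggcccaggggcgtgtgctggc
Mt3: agTGCACACacacggagagcaggcg
Slc30a1: ccGAGCGCAgtcgccgcggacg

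Over the 300 bases of each window, Mt2 held 4 cores, Mt1 held 3, Slc30a1 held 2, Mt3 and Mt4 held 1 each and Mtf1 held 0. Among 32851 RefSeq mouse promoter windows of this length, 25.7% held at least 1 core, 7.11% at least 2, 1.97% at least 3 and 0.517% at least 4. TGCACNC occurred in 12.6% and TGCGCNC in 15.4%, with windows that hold both counted in each. The single Mt3 core began 27 bases after the start, and none lay in its upstream 250 bases. Annotated starts differ between sources: GENCODE begins Mt1 transcripts at 94179082, 94179211 and 94179241 and Mt2 transcripts at 94172664 and 94172860, so the window shown is 1 of several possible promoters. A match is a string of letters and not a measured binding site.

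**Figure D1:**
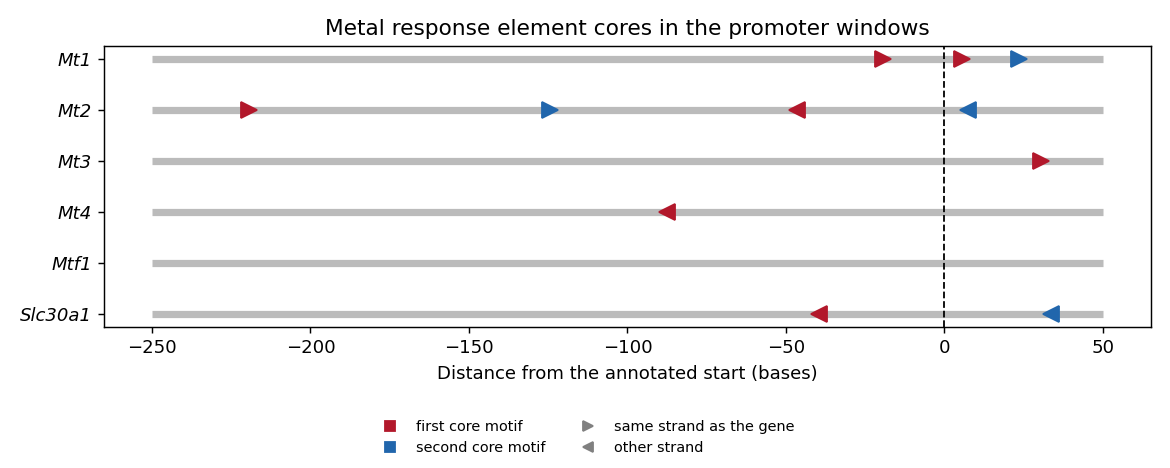
Positions of metal response element cores relative to the RefSeq start in 6 promoter windows. The x axis is the distance in bases from the start, each line is the window of 1 gene, red marks the form TGCACNC and blue TGCGCNC, and the arrow points along the strand of the match; Mt2 carries 4 matches, Mt1 3, Slc30a1 2, Mt3 and Mt4 1 each and Mtf1 0.

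Libraries held 16009146 to 19221865 counts in the cultures and 28892215 to 69466572 in the forelimbs. Replicates of every group differed beyond sampling noise (chi-square per degree of freedom 10.7 to 131), so none was counted as a repeat of another. Impdh2, the deleted gene, was lower in LysM-cKO by a log2 fold change of -1.73 at R40D3 and -1.81 at R0D3, and in Prx-cKO forelimbs by -0.53. Summed CPM (counts scaled to a common library size) of 9 osteoclast markers were 237 to 367 at R0D3, where the calcitonin receptor Calcr was at 0 in all 4 libraries, and 12700 to 37800 at R40D3. Of 6 macrophage markers the sum was 7130 to 8580 in all 8 cultures, and the R0D3 libraries, though labelled osteoclast, held little of the osteoclast markers. Single macrophage markers were split, with means from Wt R0D3 to Wt R40D3 of 2290 and 2720 CPM for Csf1r but 2220 and 1530 for Mrc1. Sums of 6 stromal fibroblast markers were 478 and 407 CPM in LysM-cKO replicate 2 at R0D3 and R40D3, and 1150 to 1540 in the other cultures. Their part in the values below was not tested. The 2 forelimb Wt libraries had the highest chi-square per degree of freedom, 131 against 44.6 in forelimb Prx-cKO, and it cannot be told which of them stands apart. The chi-square grows with counts, and the forelimbs held more counts than the cultures, so it does not rank groups by replicate spread. With all 4 forelimb libraries, 0 genes passed the edgeR test between genotypes.

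Mt3, the metallothionein best known from brain, was near absent at R0D3 and abundant at R40D3. In counts, it had 0 and 2 in Wt R0D3, 0 and 0 in LysM-cKO R0D3, 1494 and 1994 in Wt R40D3, and 921 and 1673 in LysM-cKO R40D3. Every R0D3 library was thus at or under the floor of 3 counts, and every R40D3 library held at least 921. In CPM the R40D3 libraries had 78.1 and 122 in Wt and 48.7 and 103 in LysM-cKO. With each R0D3 library set to the floor of 3 counts, Mt3 was at least 553-fold higher at R40D3 in Wt and at least 428-fold higher in LysM-cKO. The bound for LysM-cKO was 275 without R40D3 replicate 2, and leaving out other libraries of the same comparison gave 433 to 674 in Wt and 417 to 582 in LysM-cKO. The 2 R40D3 groups overlapped, as did the 2 R0D3 groups. No read of Mt4, the next gene in the cluster, was counted in any culture library, which allows up to 0.157 to 0.187 CPM per library.

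Osteoclast marker sums, like Mt3, were far higher at R40D3 than at R0D3. They were 25500 and 37800 CPM in Wt R40D3 and 12700 and 24000 CPM in LysM-cKO R40D3, in replicate order. Within R40D3 the orders differed, as Wt replicate 1 had a higher sum than LysM-cKO replicate 2 but less Mt3, 78.1 against 103 CPM. Per 1000 CPM of these markers, the Mt3 level was 3.06 and 3.23 CPM in Wt and 3.83 and 4.29 CPM in LysM-cKO. In bulk libraries, fewer cells of a type and less RNA per cell cannot be told apart, and the part of osteoclast number in the Mt3 values was not tested.

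Mt1 was already expressed at R0D3 and was modestly higher at R40D3. Its CPM were 60.1 and 72.1 in Wt R0D3, 48.2 and 60.4 in LysM-cKO R0D3, 88.6 and 116 in Wt R40D3, and 72.8 and 103 in LysM-cKO R40D3. Within each genotype the lowest R40D3 library lay above the highest R0D3 library. The log2 fold change of R40D3 over R0D3 was 0.63 (SE 0.21) in Wt and 0.69 (SE 0.21) in LysM-cKO. It was 0.38 without Wt R40D3 replicate 2 in Wt and 0.39 without LysM-cKO R40D3 replicate 2 in LysM-cKO, and reached 0.79 and 0.92 without replicate 1 of the same groups. By group mean the order was Wt R40D3, LysM-cKO R40D3, Wt R0D3, LysM-cKO R0D3. The middle neighbours did not overlap, by 72.8 against 72.1 CPM, while the 2 genotypes overlapped at R40D3 and at R0D3.

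Mt2 had the same direction at a lower level. It had 6.12 and 8.64 CPM in Wt R0D3, 5.81 and 6.97 in LysM-cKO R0D3, 9.88 and 12.8 in Wt R40D3, and 10.2 and 14.9 in LysM-cKO R40D3. Both R40D3 groups lay above both R0D3 groups. The log2 fold change was 0.62 (SE 0.27) in Wt and 0.97 (SE 0.27) in LysM-cKO. The value was 0.38 without Wt R40D3 replicate 2 in Wt and 0.63 without LysM-cKO R40D3 replicate 2 in LysM-cKO, with highest values of 0.89 and 1.23 on leaving out a library. The group means ran LysM-cKO R40D3, Wt R40D3, Wt R0D3, LysM-cKO R0D3, and neighbours overlapped except across the culture condition. Its counts were only 101 to 242 in the cultures, and 73.5% of its exonic length is shared with Gm45774, an antisense gene. Whether counting used strand is not given in the sources used here, so reads of the pair could be split or dropped. Gm45774 itself had few counts and did not pass the test in any comparison.

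The zinc exporter Slc30a1 was also higher at R40D3. Its CPM were 58.8 and 54.1 in Wt R0D3, 56.6 and 49.1 in LysM-cKO R0D3, 70.6 and 78.4 in Wt R40D3, and 59.5 and 74.1 in LysM-cKO R40D3. The groups did not overlap within a genotype, although LysM-cKO R40D3 replicate 1, at 59.5 CPM, lay close to the 56.6 CPM of the nearest R0D3 library. The log2 fold change was 0.40 (SE 0.13) in Wt and 0.34 (SE 0.13) in LysM-cKO, and 0.13 in LysM-cKO without R40D3 replicate 2. Group means ran Wt R40D3, LysM-cKO R40D3, Wt R0D3, LysM-cKO R0D3, with overlap between the genotypes under each condition.

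Mtf1, the zinc sensor, varied little. Its CPM were 26.9 and 27.5 in Wt R0D3, 29.3 and 29.4 in LysM-cKO R0D3, 29.2 and 27.3 in Wt R40D3, and 29.4 and 29.0 in LysM-cKO R40D3. All 8 values lay within 26.9 to 29.4 CPM. The log2 fold change of R40D3 over R0D3 was 0.06 (SE 0.09) in Wt and -0.01 (SE 0.09) in LysM-cKO.

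All 5 genes passed the filter on low counts in the cultures, Mt3 through its R40D3 libraries. Mt3 was the 1 gene of the 5 called (edgeR, adjusted p under 0.05) in each genotype, as higher at R40D3. Of 14030 tested genes, 16.9% were called in Wt, 11.4% as higher and 5.52% as lower, and 10.1% in LysM-cKO, 6.99% as higher and 3.15% as lower. Mt1, Mt2, Mt3 and Slc30a1 had groups that did not overlap, higher at R40D3, in both genotypes, as did 32.9% of all genes in Wt and 27.3% in LysM-cKO. With the replicate number as a block, 4 of the 5 were called in Wt and 3 in LysM-cKO, and 3976 and 2983 genes overall in place of 2370 and 1422. By DESeq2, 2 of the 5 were called in Wt and 3 in LysM-cKO, and with only its 4 libraries 3 were called in Wt. The share of all genes called under these settings is not given here, so these counts cannot be set against it. These contrasts chose the genes, so the counts are descriptive.

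**Figure D2:**
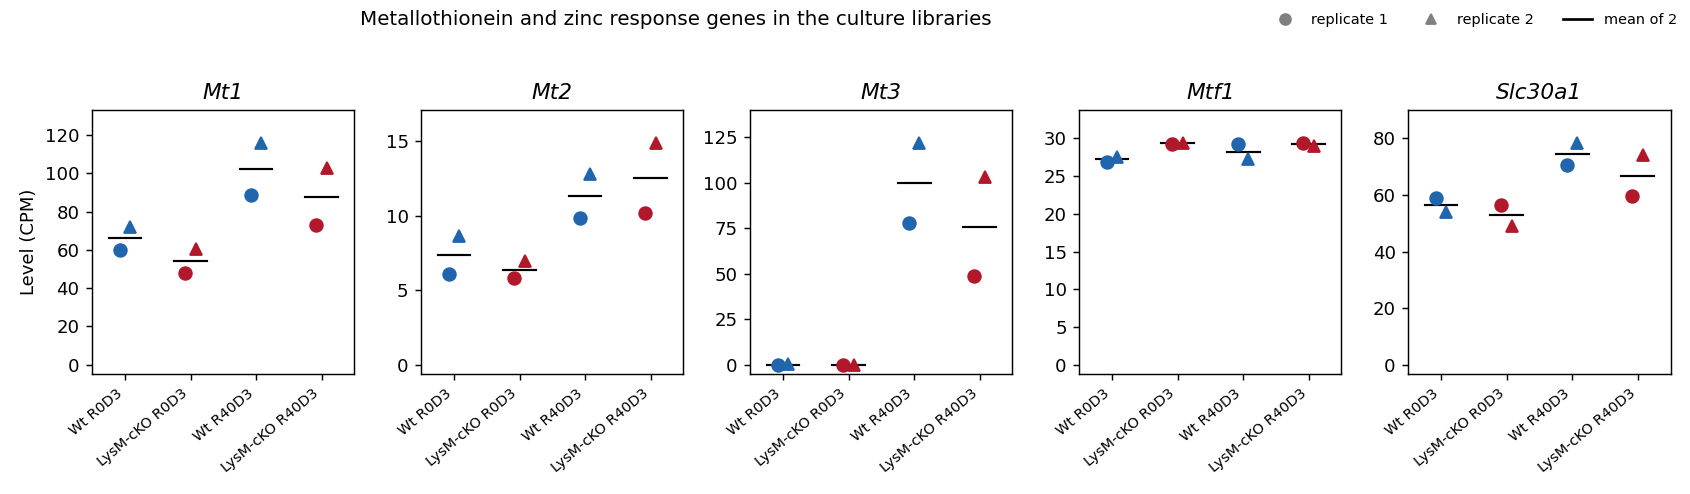
Levels of the 5 genes in the 8 culture libraries. The y axes are CPM, each point is 1 library, bars mark group means, blue is Wt and red LysM-cKO; Mt3 is at 0 to 0.124 CPM in R0D3 and 48.7 to 122 in R40D3, Mt1, Mt2 and Slc30a1 are higher at R40D3, and Mtf1 stays between 26.9 and 29.4.

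Levels of different genes were compared only after division by exonic length (CPM per kilobase), the merged length of all annotated transcripts. It is 1246 bases for Mt1, which fills the gene from 94179082 to 94180327, 588 for Mt2 and 1066 for Mt3. The order and shares of the genes below depend on these lengths. On this scale the summed level of Mt1, Mt2 and Mt3 was 58.6 and 72.7 in Wt R0D3, 48.6 and 60.3 in LysM-cKO R0D3, 161 and 229 in Wt R40D3, and 121 and 205 in LysM-cKO R40D3. Mt3 made up 45.5% and 49.8% of the sum in Wt R40D3 and 37.6% and 47.3% in LysM-cKO R40D3, against 0 to 0.161% at R0D3. Mt1 made up 79.6% to 82.2% at R0D3 and 40.3% to 48.1% at R40D3. A metallothionein pool made of Mt1 and Mt2 at R0D3 was thus joined at R40D3 by Mt3 at about the level of Mt1 per exonic length. The ratio of Mt1 to Mt2 per length was 3.25 to 4.63 across the 8 cultures.

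In forelimbs the balance per exonic length was the other way. The ratio of Mt1 to Mt2 per length was 0.506 and 0.628 in Wt and 0.851 and 0.802 in Prx-cKO. Per length Mt2 thus exceeded Mt1 in each library, and the genotypes did not overlap. In counts Mt1 exceeded Mt2 in each, 633 and 752 against 590 and 565 in Wt and 581 and 1294 against 322 and 761 in Prx-cKO. Which of the genes is higher therefore depends on the lengths used. A ratio within a library does not depend on library scaling, but the overlap of Mt2 with Gm45774 touches it in both tissues. The summed level was 21.9 to 45.8 CPM per kilobase, and this is set beside the cultures with the 2 tables normalised separately.

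**Figure D3:**
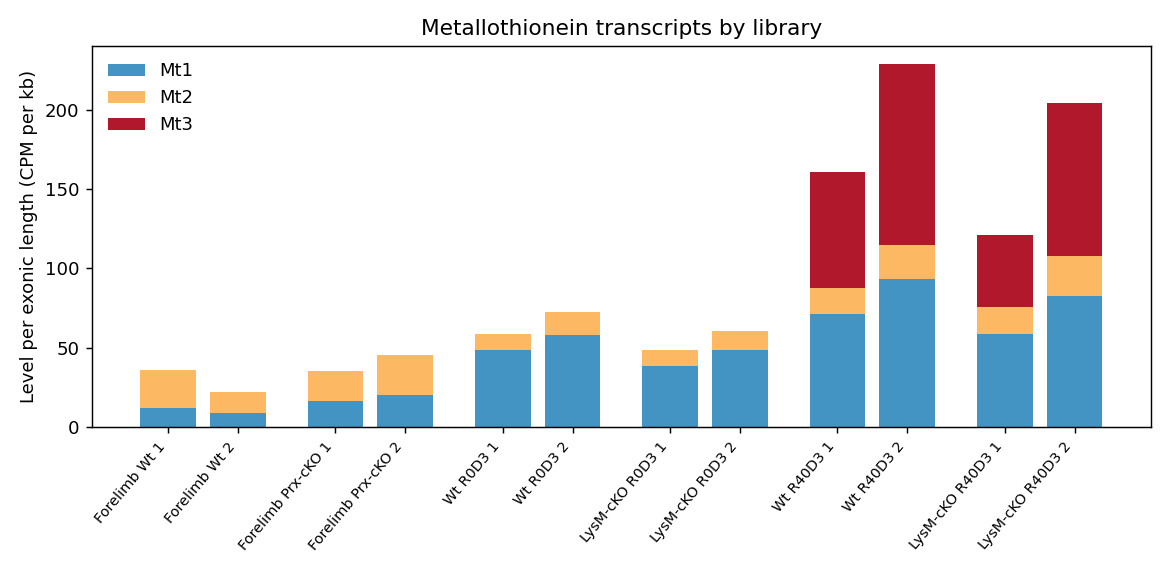
Metallothionein level per exonic length in the 12 libraries. The y axis is CPM per kilobase and the stacked colours are Mt1, Mt2 and Mt3. Mt3 supplies 37.6% to 49.8% of the stack in R40D3 libraries and at most 0.418% in all others. Mt2 is the larger share in the forelimbs on this scale, though Mt1 has more counts there.

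The genotype comparison in cultures asked whether loss of Impdh2 in myeloid cells changed these genes. At R40D3 the log2 fold change of LysM-cKO over Wt was -0.22 (SE 0.21) for Mt1, 0.14 (SE 0.25) for Mt2, -0.40 (SE 0.34) for Mt3, 0.04 (SE 0.09) for Mtf1 and -0.16 (SE 0.13) for Slc30a1. The groups overlapped for all 5, while 38.7% of all genes did not overlap in either direction. Between same-numbered libraries Mt3 was lower in LysM-cKO by -0.68 and -0.24 on the log2 scale, in both pairs, while its 2 Wt libraries ranged from 78.1 to 122 CPM. At R0D3 the log2 fold change was -0.28 (SE 0.21) for Mt1, -0.21 (SE 0.28) for Mt2, 0.11 (SE 0.09) for Mtf1 and -0.10 (SE 0.13) for Slc30a1. Mtf1 was the 1 gene whose groups did not overlap there, 29.3 and 29.4 against 26.9 and 27.5 CPM, and 17.5% of all genes did not overlap and were higher in LysM-cKO. None of the 5 was called in either comparison, where 0.0143% of genes were called at R40D3 and 0.0143% at R0D3. With the replicate block or by DESeq2, 0 of the 5 were called as well.

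The interaction, the difference between the genotype effect at R40D3 and at R0D3, is computed from the genotype contrasts that chose the genes, so it too is given for them without a p-value. It was 0.06 (SE 0.30) for Mt1, 0.35 (SE 0.38) for Mt2, -0.07 (SE 0.13) for Mtf1 and -0.06 (SE 0.19) for Slc30a1. Each value was within 1 SE of 0. Over all 14030 genes 0 passed edgeR's quasi-likelihood test (0%), with 248 at an unadjusted p under the threshold and 0 by DESeq2. For Mt3 it cannot be read, because LysM-cKO R0D3 had 0 counts.

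In forelimb, Mt1 had 15 and 10.5 CPM in Wt and 20.2 and 25.3 CPM in Prx-cKO. Both Prx-cKO libraries lay above both Wt libraries, with a log2 fold change of 0.85 (SE 0.26). Leaving out Wt replicate 1 gave 1.09 and leaving out Wt replicate 2 gave 0.62. Between libraries alike in Xist counts, which are high in 1 library of each genotype, the log2 difference was 0.76 and 0.95. Mt2 had 13.9 and 7.87 CPM in Wt and 11.2 and 14.9 in Prx-cKO, which overlapped, with a log2 fold change of 0.27 (SE 0.35). Leaving out Wt replicate 2 gave -0.08, and leaving out Wt replicate 1 gave 0.70.

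Mtf1 had 18.2 and 20.2 CPM in forelimb Wt and 15.5 and 20.0 in Prx-cKO, and Slc30a1 had 18.5 and 21.0 in Wt and 15 and 18.8 in Prx-cKO. Both sets of groups overlapped, with log2 fold changes of -0.11 (SE 0.22) and -0.22 (SE 0.21). Mt3 had 0 and 7 counts in Wt and 3 and 0 in Prx-cKO and did not pass the filter, so 4 of the 5 genes were tested. Of these, 0 were called, where 0% of 19987 genes were called and 2096 had an unadjusted p under the threshold. DESeq2 called 393 genes and 0 of the 5. The groups of 1 of the 4, Mt1, did not overlap, and 22.2% of all genes did not overlap and were higher in Prx-cKO.

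Cell type markers also differed between the forelimb genotypes. Summed CPM of 3 chondrocyte markers were 607 and 653 in Wt and 264 and 210 in Prx-cKO, those of 5 limb mesenchyme markers 852 and 937 against 665 and 712, and those of 3 muscle markers 225 and 227 against 676 and 324. Their part in the Mt1 value was not tested. The sums of 4 erythroid markers, 492 and 576 in Wt and 621 and 596 in Prx-cKO, and of 4 ectoderm markers, 546 and 658 against 669 and 721, were also higher in Prx-cKO, as was that of 3 endothelial markers, 83.9 and 90.4 against 108 and 113. The sums of 6 stromal fibroblast markers, 1800 and 1790 in Wt and 1630 and 1540 in Prx-cKO, and of 6 macrophage markers, 82.1 and 85.3 against 78.3 and 65.8, were lower. The macrophage sum followed Mertk, with a mean of 58.7 CPM in Wt and 29.7 in Prx-cKO. Means of its other markers were higher in Prx-cKO: Csf1r 7.89 and 15.9, Adgre1 2.49 and 6.98, Mrc1 5.85 and 9.72, Cd68 8.57 and 9.48, and Itgam 0.192 and 0.198. Markers within other sums were also split, such as Twist1, 227 and 255, in limb mesenchyme.

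**Figure D4:**
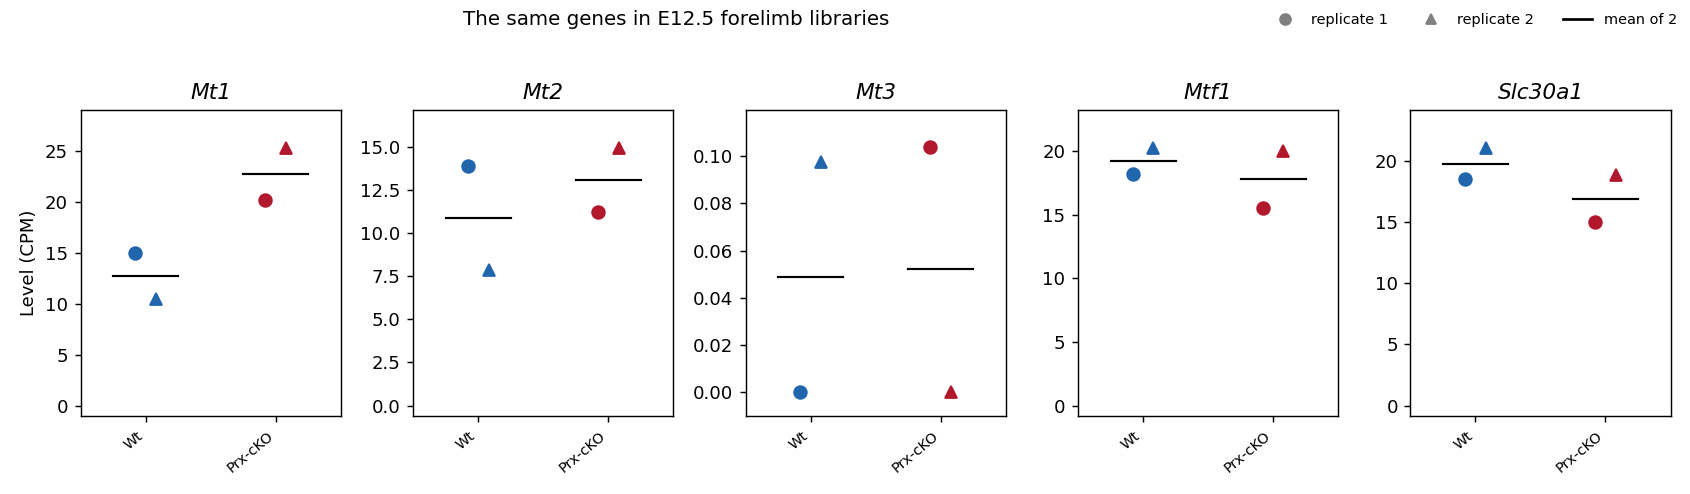
Levels of the 5 genes in the 4 forelimb libraries. The y axes are CPM, each point is 1 library, bars mark group means, blue is Wt and red Prx-cKO; Mt1 is 10.5 and 15 CPM in Wt and 20.2 and 25.3 in Prx-cKO, the other genes overlap, and Mt3 is near the floor on an expanded axis.

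Mt1 and Mt2, described above, lie within 100000 bases of Mt3. The other tested neighbours in that span were Ogfod1, Bbs2, Nup93, Rpl10-ps5 and Gm45774, and 0 of these 5 passed the edgeR test in any of the 6 comparisons. In Wt at R40D3 over R0D3, the adjusted p was 0.279 for Bbs2, with a log2 fold change of 0.31 (SE 0.17), and 0.222 for Nup93, with 0.32 (SE 0.16). Mt4 and Gm39228 did not pass the filter.

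Zinc importers changed in both directions at R40D3. In Wt, 3 of 13 tested ZIP genes rose and 2 fell (edgeR, adjusted p under the threshold), and in LysM-cKO 3 rose and 1 fell. Of all genes, 11.4% rose and 5.52% fell in Wt, and 6.99% rose and 3.15% fell in LysM-cKO. The list's median log2 fold change was 0.10 in Wt and -0.05 in LysM-cKO, against 0.01 and 0.009 over all genes. Slc39a13, an intracellular ZIP13 known from connective tissue, rose by 2.37 in Wt (adjusted p 0.000807) and 1.81 in LysM-cKO (adjusted p 0.00327). Its CPM were 20.8 and 23.8 in Wt R0D3 and 100 and 131 in Wt R40D3, 23.9 and 20.1 in LysM-cKO R0D3 and 63.4 and 90.9 in LysM-cKO R40D3. The R40D3 libraries lay far above those of R0D3 in both genotypes.

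Slc39a1, the plasma membrane ZIP1, rose by 1.58 in Wt (adjusted p 0.00258) and 1.07 in LysM-cKO (adjusted p 0.0168). It went from 186 and 188 CPM in Wt R0D3 to 481 and 640 at R40D3, and from 171 and 185 to 304 and 446 CPM in LysM-cKO. Slc39a4, the ZIP4 of intestinal zinc uptake, rose by 1.43 (adjusted p 0.0189) and 2.12 (adjusted p 0.00854), at no more than 10.3 CPM. Slc39a6, which encodes ZIP6, fell by 0.53 in Wt (adjusted p 0.019) and 0.59 in LysM-cKO (adjusted p 0.0189). Slc39a8, the ZIP8 of the plasma membrane and lysosome, fell by 0.91 in Wt (adjusted p 0.028). In LysM-cKO Slc39a8 had -0.56 with an adjusted p of 0.153, and 0.0145 with the replicate block. Slc39a12 had -1.26 in Wt with an adjusted p of 0.054, and 0.0232 with the block. With the block the counts were thus 3 higher and 3 lower in Wt and 3 higher and 2 lower in LysM-cKO. Calls over all genes rose with the block as well.

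Slc39a13 in both genotypes and Slc39a1 in Wt passed under each of 14 alternatives. Slc39a4 and Slc39a6 in Wt did not pass without any 1 of the 4 Wt libraries (highest adjusted p 0.125 and 0.113), nor did Slc39a8 without 3 of them, Wt R0D3 replicates 1 and 2 and R40D3 replicate 2 (highest 0.167). In LysM-cKO, Slc39a1 and Slc39a6 did not pass without R0D3 replicate 2 or R40D3 replicate 2, Slc39a1 also not without R0D3 replicate 1, and Slc39a4 not without R0D3 replicate 2. The count of ZIP genes called ran from 2 to 6 in Wt and from 1 to 4 in LysM-cKO when a library was left out, and was 1 in LysM-cKO with only its 4 libraries. The interaction was -0.56 for Slc39a13 (SE 0.29, adjusted p 1), so a difference between genotypes in its rise did not pass.

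Among other zinc exporters 0 of 5 tested ZnT genes passed in either genotype, with 1 at an unadjusted p under the threshold in each and 0 by DESeq2. Of all genes, 16.9% passed in Wt and 10.1% in LysM-cKO by edgeR. Slc30a9 came nearest, at 0.29 in Wt (adjusted p 0.0867, and 0.0431 with the replicate block) and 0.23 in LysM-cKO (adjusted p 0.206). Slc30a2, Slc30a3, Slc30a8 and Slc30a10 were not tested in the cultures.

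**Figure D5:**
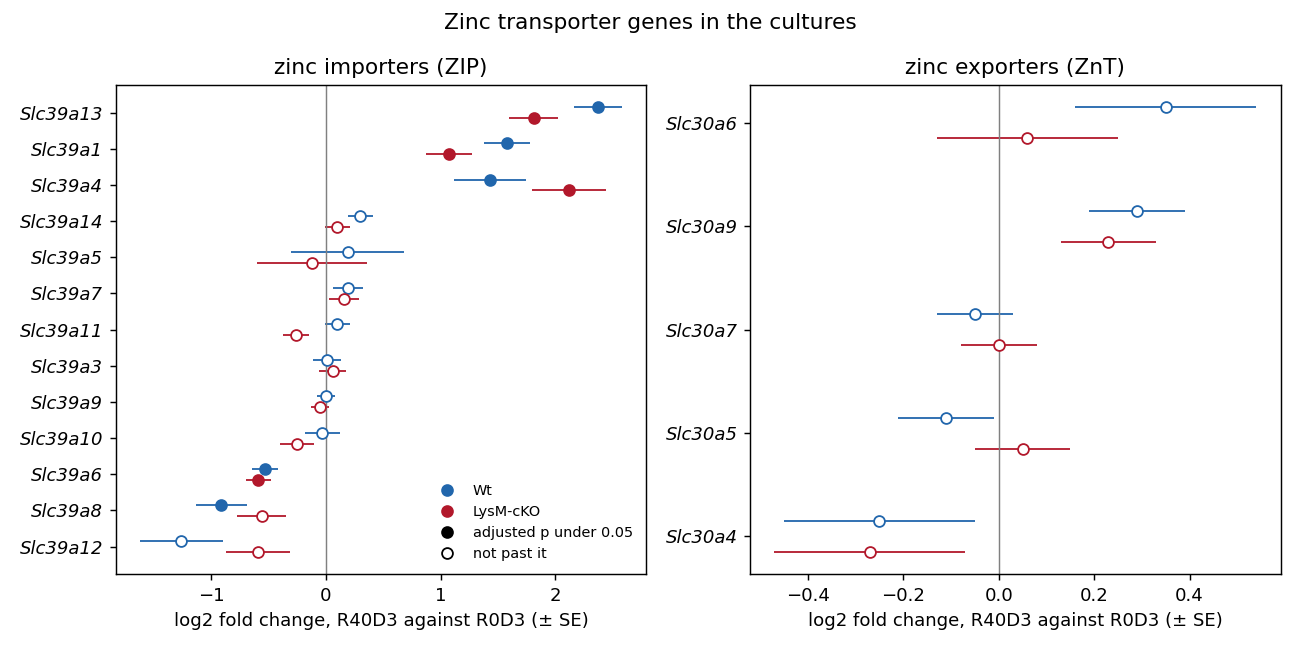
Log2 fold change of R40D3 over R0D3 for the tested zinc transporter genes in Wt and LysM-cKO cultures. The x axis is the log2 fold change with its SE, each row is a gene, blue is Wt and red LysM-cKO, and filled points passed the test; Slc39a13 and Slc39a1 stand highest on the right in Wt at 2.37 and 1.58, Slc39a4 reaches 2.12 in LysM-cKO, and Slc39a8 in Wt lies at -0.91.

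Other genes known to respond to metal or stress were at lower levels or did not pass. Of 7 tested, 0 rose and 1 fell in each genotype: Ndrg1, a gene induced by metals and low oxygen, fell by 1.2 in Wt (adjusted p 0.0166) and 1.04 in LysM-cKO (adjusted p 0.0389). The median log2 fold change was -0.38 in Wt and -0.40 in LysM-cKO, against 0.01 and 0.009 over all genes. Of all genes, 5.52% were called as lower in Wt and 3.15% in LysM-cKO. Hmox1, haem oxygenase 1, had 437 and 523 CPM in Wt R0D3 and 321 and 310 in Wt R40D3. Its log2 fold change was -0.60 in Wt (adjusted p 0.0741) and -0.64 in LysM-cKO (adjusted p 0.0855) by edgeR. It passed as lower by DESeq2, with adjusted p 0.0109 and 0.00896, and with the replicate block, with 0.018 and 0.0203. With the replicate block 4 of the list were called in Wt and 3 in LysM-cKO, all lower, and calls over all genes rose as well. Without any 1 of the Wt libraries Ndrg1 did not pass in Wt, and in LysM-cKO it did not pass without R0D3 replicate 2, R40D3 replicate 1 or any 1 Wt library.

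Copper genes were split. In Wt, Atox1, a copper chaperone, rose by 0.84 (adjusted p 0.00767) and Atp7a, a copper-exporting ATPase, fell by 0.46 (adjusted p 0.0344), 2 of 8 tested. In LysM-cKO, Atox1 rose by 0.73 (adjusted p 0.0204), Slc31a1, the copper importer CTR1, rose by 0.40 (adjusted p 0.029) and Atp7a fell by 0.54 (adjusted p 0.0274). The medians were 0.15 and 0.18, against 0.01 and 0.009 over all genes, of which 16.9% and 10.1% were called. With the replicate block the counts were 4 in Wt and 5 in LysM-cKO, and with the LysM-cKO libraries alone 0. Over all genes the block also raised the calls, and the LysM-cKO libraries alone gave fewer. Slc31a1 did not pass when any 1 of the 8 libraries was left out. In Wt, Atox1 did not pass without Wt R0D3 replicate 1 or 2 or Wt R40D3 replicate 2, nor Atp7a without Wt R0D3 replicate 1, Wt R40D3 replicate 2 or LysM-cKO R0D3 replicate 2. In LysM-cKO, Atp7a did not pass without any 1 of the 4 LysM-cKO libraries, nor Atox1 without R0D3 replicate 1 or 2 or R40D3 replicate 2.

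Glucocorticoids also induce Mt1 and Mt2, so glucocorticoid response genes were listed. In Wt 0 of 8 rose and 1 fell, Sgk1, a kinase gene, by 0.57 (adjusted p 0.0184), and in LysM-cKO 0 passed, with 1 at an unadjusted p under the threshold and 0 by DESeq2. Klf9 came nearest in LysM-cKO, at -0.55 (adjusted p 0.132). The medians were -0.42 and -0.40, against 0.01 and 0.009 over all genes, of which 5.52% and 3.15% were called as lower. With the replicate block 4 in Wt and 3 in LysM-cKO were called, all lower, and the block raised the calls over all genes as well. Sgk1 did not pass without Wt R0D3 replicate 2 or either Wt R40D3 library.

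Between genotypes, 0 genes of these 5 lists passed at R40D3 or R0D3 by edgeR or DESeq2. At R40D3, 3 ZIP genes, 1 ZnT gene and 1 glucocorticoid response gene had an unadjusted p under the threshold. Slc39a12 at 1.33, Slc30a5 at 0.25 and Sgk1 at 0.29 came nearest, each with an adjusted p of 0.648. At R0D3 Atp7a came nearest among copper genes, at 0.31 (adjusted p 0.997).

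In forelimb 0 genes of the 5 lists passed by edgeR, with 1 ZnT, 1 other metal-response, 1 copper and 2 glucocorticoid response genes at an unadjusted p under the threshold. Hmox1 was nearest, at 18.0 and 19.3 CPM in Wt and 33.2 and 31.5 CPM in Prx-cKO. Its log2 fold change was 0.79 (SE 0.17, adjusted p 0.392), and it passed by DESeq2 (adjusted p 0.0203). The median log2 fold change was 0.29 for other metal-response genes and 0.29 for copper genes, -0.08 for ZnT and -0.11 for ZIP genes, against -0.03 over all genes. Sod1, copper-zinc superoxide dismutase, had 0.58 (adjusted p 0.465).

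By Pearson r of log2 CPM over the 8 cultures, among 12401 genes, Mt3 was most like Bdh1 (r 0.998), F2r (0.998) and Oscar (0.997), which encode a ketone body dehydrogenase, a thrombin receptor and an osteoclast receptor. Bdh1 had 1.17 to 1.80 CPM at R0D3 and 68.0 to 159 at R40D3. Mt1 was most like Asns (0.992), Tars (0.990) and Tmem60 (0.989), the first of which encodes asparagine synthetase and the second threonyl-tRNA synthetase. Asns had 10.9 to 20.0 CPM at R0D3 and 21.9 to 50.5 at R40D3. Mt2 ranked 342 for likeness to Mt1 (0.939), Mt3 ranked 1313 (0.867) and Mtf1 had -0.183. Slc30a1 was most like Malt1 (0.995), Map7 (0.985) and Mlycd (0.985). The 8 libraries fall into the R0D3 and R40D3 sets, and r carries that separation.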

How the data were processed

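Counts per gene were deposited by the authors in 3 tables, 1 of 4 forelimb libraries and 1 for each replicate number of the cultures. The submitters' processing notes name FastQC 0.11.2, Trimmomatic 0.36, HISAT2 2.1.0, DESeq2 1.12.4 and GRCm38. The counting tool, annotation and use of strand are not given in the sources used here. Ensembl identifiers were matched to symbols (99.5% in cultures, 99.6% in forelimb).

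The genes and lists were chosen with earlier results of these data known. Counts were tested with edgeR 4.0.16 in R 4.3.3 (quasi-likelihood, filterByExpr, TMM) on the 8 culture libraries in 1 fit and the 4 forelimb libraries in another. P-values were adjusted over all genes tested by Benjamini-Hochberg, with 0.05 as threshold. CPM use TMM-scaled totals, and correlations use log2 CPM with a prior count of 2. Exonic lengths came from GENCODE, and promoters from RefSeq (GRCm38.p6). Scripts were tested on simulated data. Alternatives were DESeq2 1.42.0, another scaling (RLE), no filter, the older quasi-likelihood fit, only the libraries compared, library type by Xist, a replicate block, and each library left out.

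All 5 genes are given. From each list, the called genes (up to 4 in each direction) or the nearest to passing are named, with the 3 genes most like Mt1, Mt3 and Slc30a1. Hmox1 and the neighbours of Mt3 were named after their values were seen. Deviations of same-numbered culture libraries correlated by 0.343 to 0.609 in all 6 pairs of groups, and each number has its own table. The culture numbers were therefore treated as pairs in the same-numbered differences and the replicate block. The main edgeR fit, which gave the main calls, had no such block and left the pairing out. In forelimb the correlation was 0.261, which was not read as a pairing. The replicate block was still among the forelimb alternatives, and same-numbered forelimb differences were used to flag genes.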

Additional observations from a re-analysis of the deposited data

Results flagged for a closer look

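By same-numbered libraries, Mt1 lay on opposite sides of Wt in the 2 deletions, although the genotypes overlapped in the cultures. Its log2 fold change there was -0.22 (SE 0.21) at R40D3 and -0.28 (SE 0.21) at R0D3. The R40D3 value was 0.03 without LysM-cKO R40D3 replicate 1. Between same-numbered libraries the log2 difference was 0.43 and 1.27 in Prx-cKO forelimb, and -0.28 and -0.18 at R40D3 and -0.32 and -0.25 at R0D3 in LysM-cKO cultures. The forelimb log2 fold change exceeded that of the cultures by 1.07 at R40D3 and 1.13 at R0D3. Mtf1 had the reverse pattern at a small size, -0.24 and -0.02 in forelimb against 0.01, 0.08, 0.12 and 0.09 in cultures, and its forelimb log2 fold change differed from theirs by -0.15 at R40D3 and -0.22 at R0D3. These genes stood out because both same-numbered pairs went one way in forelimb and all 4 in cultures the other. The tissue, Cre driver and table differ together, and the difference was not tested. In forelimb the numbers do not pair libraries, and each same-numbered pair set a library high in Xist counts against a library low in them. Between forelimb libraries alike in Xist counts, the log2 difference was 0.76 and 0.95 for Mt1, but 0.13 and -0.39 for Mtf1, so the direction for Mtf1 depends on which libraries are set against each other.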

How the results depend on the processing

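Whole-table counts of called genes carried the limits. With DESeq2, 7 genes were called for LysM-cKO against Wt at R0D3, 19 at R40D3 and 393 in forelimb; with only the 4 libraries compared, 0, 0 and, for R40D3 against R0D3 in LysM-cKO, 532. Library type by Xist as a term gave 1 call in forelimb. Leaving out a library gave 0 to 1 calls for genotype at R0D3, 0 to 0 at R40D3, 689 to 2424 for R40D3 against R0D3 in Wt, 399 to 1317 in LysM-cKO, 0 to 605 in forelimb and 0 to 0 for the interaction. The cause was not tested, beyond the fewer samples in each.

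With the replicate block, the pairing gave 30 calls for genotype at R40D3, 3976 for R40D3 against R0D3 in Wt and 2983 in LysM-cKO.

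Outside the interaction, the 22 fold changes of the 5 genes had 274 alternative values: 249 kept direction and lay within the replicate spread, 17 moved and 8 turned sign, all 8 on leaving out a library, as did 8 values of the interaction. By result, from lowest to highest, these were -0.51 to 0.03 for Mt1 and -0.17 to 0.42 for Mt2 in LysM-cKO at R40D3, -0.34 to 0.02 for Slc30a1 there, -0.44 to 0.06 for Mt2 at R0D3, -0.02 to 0.07 for Mtf1 in Wt at R40D3 over R0D3, -0.08 to 0.70 for Mt2 and -0.31 to 0.06 for Mtf1 in forelimb, and -0.21 to 0.33 for Mt1 and -0.23 to 0.12 for Slc30a1 in the interaction.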
